A study of Homo sapiens with 45 samples.

Results

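The genes described here encode the subunits of voltage-gated calcium and sodium channels in 3 neuroblastoma cell lines treated with palbociclib. Members were taken by gene symbol from the deposited counts: the calcium channel subunits alpha1 (CACNA1), alpha2delta (CACNA2D), beta (CACNB) and gamma (CACNG), and the sodium channel subunits alpha (SCN numbers ending in A) and beta (ending in B). This gave 39 of 29159 genes. Of these, 20 form the pore (10 calcium channel alpha1 and 10 sodium channel alpha genes) and 19 are auxiliary (4 alpha2delta, 4 beta and 7 gamma genes of calcium channels and 4 beta genes of sodium channels). Palbociclib (PB) inhibits the cell-cycle kinases CDK4 and CDK6. It was given at 1 μM to SK-N-BE(2)C (MYCN amplified, 1p loss), IMR-32 (MYCN and MEIS1 amplified, 1p loss) and SH-SY5Y (ALK mutant, with gains of a 1q segment and of 17q), all established lines of the adrenergic (ADRN) type grown in medium with serum. Each line was sequenced as control, after 24 h of PB and after longer PB, which was 7 d in SK-N-BE(2)C and 5 d in IMR-32 and SH-SY5Y. The 9 groups held 5 biological replicates each, 45 libraries in all, which the paper describes as different passages plated in independent experiments. Since control cells were harvested beside the 24 h cultures, longer PB also means more days in culture, and a gap between SK-N-BE(2)C and another line at that time cannot be told apart from 7 d against 5 d. A cell line in culture also has no synaptic partners or target tissue, and no current or protein was measured in these files.

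Voltage-gated channels open when the membrane depolarises. In a sodium channel the alpha subunit is the pore that carries the rising phase of the action potential, while beta subunits are adhesion-type proteins that set gating and surface level. In a calcium channel the alpha1 subunit is the pore and sets the current type (L, N, P/Q, R or T), the alpha2delta and beta subunits bring it to the membrane and tune its gating, and several gamma subunits work mainly as partners of AMPA-type glutamate receptors. In cells of the sympathetic lineage, N-type and L-type calcium channels couple depolarisation to transmitter release, and sodium channel alpha subunits set excitability.

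The depth of the libraries was 13459219 to 25441812 counts with a median of 18494528. On the scale used for levels, CPM, each count is scaled to a library total of 1000000, and 1 CPM is 18.5 reads at the median depth. The treatment was visible in every line: 6 of 6 proliferation genes fell at both times, and their summed level in SK-N-BE(2)C went from 2244 to 2456 CPM in controls to 168.1 to 310.6 CPM at 24 h and 137.2 to 602.2 CPM at 7 d. Median sums in controls, at 24 h and at 5 d were 1969, 261.5 and 766.8 CPM in IMR-32 and 2025, 106.6 and 320.1 CPM in SH-SY5Y. In both of these lines 6 of 6 were called higher at 5 d than at 24 h, while 0 of 6 changed between 24 h and 7 d in SK-N-BE(2)C. All 8 adrenergic markers listed were among the counts, with summed control levels of at least 2024 CPM in IMR-32, the lowest library of the 3 lines. TH, the first enzyme of catecholamine synthesis, was near 0 in SH-SY5Y (0.106 to 0.842 CPM in controls). Mesenchymal-type markers (7 of 8 among the counts) fell at the longer time in 4 of 6, 4 of 5 and 5 of 7 tested genes of SK-N-BE(2)C, of IMR-32 and of SH-SY5Y, and 1, FN1, rose in SK-N-BE(2)C. Where 3 values follow each other without names, they are in this order of lines. Of the 8 adrenergic markers 1, 4 and 2 were called higher and none lower at 24 h. After longer PB 0, 1 and 1 of them were higher and 1 was lower in each line. Of all genes tested, 10.9%, 7.87% and 10.5% were higher and 10.6%, 10.5% and 11.0% lower at 24 h. The shares after longer PB were 24.5%, 16.6% and 18.6% higher and 22.3%, 15.5% and 17.3% lower. Their median summed level in IMR-32 was 2845 CPM in controls, 3688 CPM at 24 h and 3199 CPM at 5 d. Libraries of IMR-32 with replicate number 5 stood apart: their summed mesenchymal level was 1082 CPM in the control (the other 4 at 575.9 to 613.5), 910.7 CPM at 24 h (480.8 to 569.7) and 439.8 CPM at 5 d (265.0 to 356.9). Controls 3 to 5 of SK-N-BE(2)C lay together, at 799.1 to 833.2 CPM of mesenchymal markers against 615.8 and 640.4 CPM in controls 1 and 2. Schwann cell markers (3 of 4 among the counts) summed to at most 14.0 CPM in any library. Their sum was 5.00 to 8.22 CPM in controls of SK-N-BE(2)C, 9.29 to 14.0 CPM at 24 h and 10.2 to 13.7 CPM at 7 d, with 2 of 2 tested genes higher at 24 h and 1 at 7 d. In IMR-32 it was 1.15 to 3.32 CPM in controls and 5.27 to 9.26 CPM at 5 d (1 of 1 tested higher), and in SH-SY5Y 2.62 to 3.67 and 2.73 to 5.37 CPM (1 of 2 higher). Several channel genes were also low in IMR-32 replicate 5. Values without these libraries are given where a call at 5 d against control was lost without them, and for 24 h the counts alone are given. The part that these markers and libraries had in the results was not tested. In bulk RNA, fewer cells of a type and less RNA per cell cannot be told apart.

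In untreated cells the same subunit led the beta and gamma classes of calcium channels and the beta class of sodium channels in every line, and the leaders of the other classes differed. Levels between genes are compared as CPM per kilobase of exon, as mean ± SD of 5 controls. Among pore-forming calcium channel genes, the T-type gene CACNA1H led in SK-N-BE(2)C at 2.86 ± 0.749 and in IMR-32 at 36.6 ± 9.42 CPM per kb, which was 65.6% and 64.3% of the class sum. In SH-SY5Y CACNA1H had 3 counts in 15 libraries, and the N-type gene CACNA1B led at 2.84 ± 0.235 CPM per kb, 65.8% of the class. Among sodium channel alpha genes SCN9A was highest in SK-N-BE(2)C (4.67 ± 0.791) and SH-SY5Y (4.91 ± 1.57 CPM per kb). SCN3B made up 99.2%, 89.7% and 75.6% of the sodium channel beta sum. CACNB3 led the beta class of calcium channels in every line (5.22 ± 0.315, 29.3 ± 6.82 and 20.7 ± 1.001 CPM per kb). CACNG4, a partner of AMPA receptors, led the gamma class in every line, at 15.1 ± 9.24, 54.2 ± 8.58 and 133 ± 17.0 CPM per kb. Of alpha2delta genes, CACNA2D1 led in SK-N-BE(2)C (19.0 ± 2.13 CPM per kb), with CACNA2D2 first in SH-SY5Y (59.0 ± 13.3 CPM per kb). In IMR-32 the alpha2delta means were 10.9 ± 5.31 CPM per kb for CACNA2D2 and 8.27 ± 1.64 CPM per kb for CACNA2D1, a difference smaller than the SD of the former.

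In a fit of all 45 libraries, 32 members had enough counts to compare controls between lines (edgeR, adjusted p under 0.05 and log2 fold change beyond 0.5). SK-N-BE(2)C differed from IMR-32 in 27 of 32 (7 higher and 20 lower in SK-N-BE(2)C), where 62.1% of all genes tested differed. Against SH-SY5Y it differed in 23 of 32 (8 higher, 15 lower; all genes 57.5%), and IMR-32 differed from SH-SY5Y in 27 of 32 (16 higher, 11 lower; all genes 54.2%). A member enters this fit when it is high enough in any group, so genes read in 1 line alone are among those that differ, and the counts are given as a description.

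**Figure D1:**
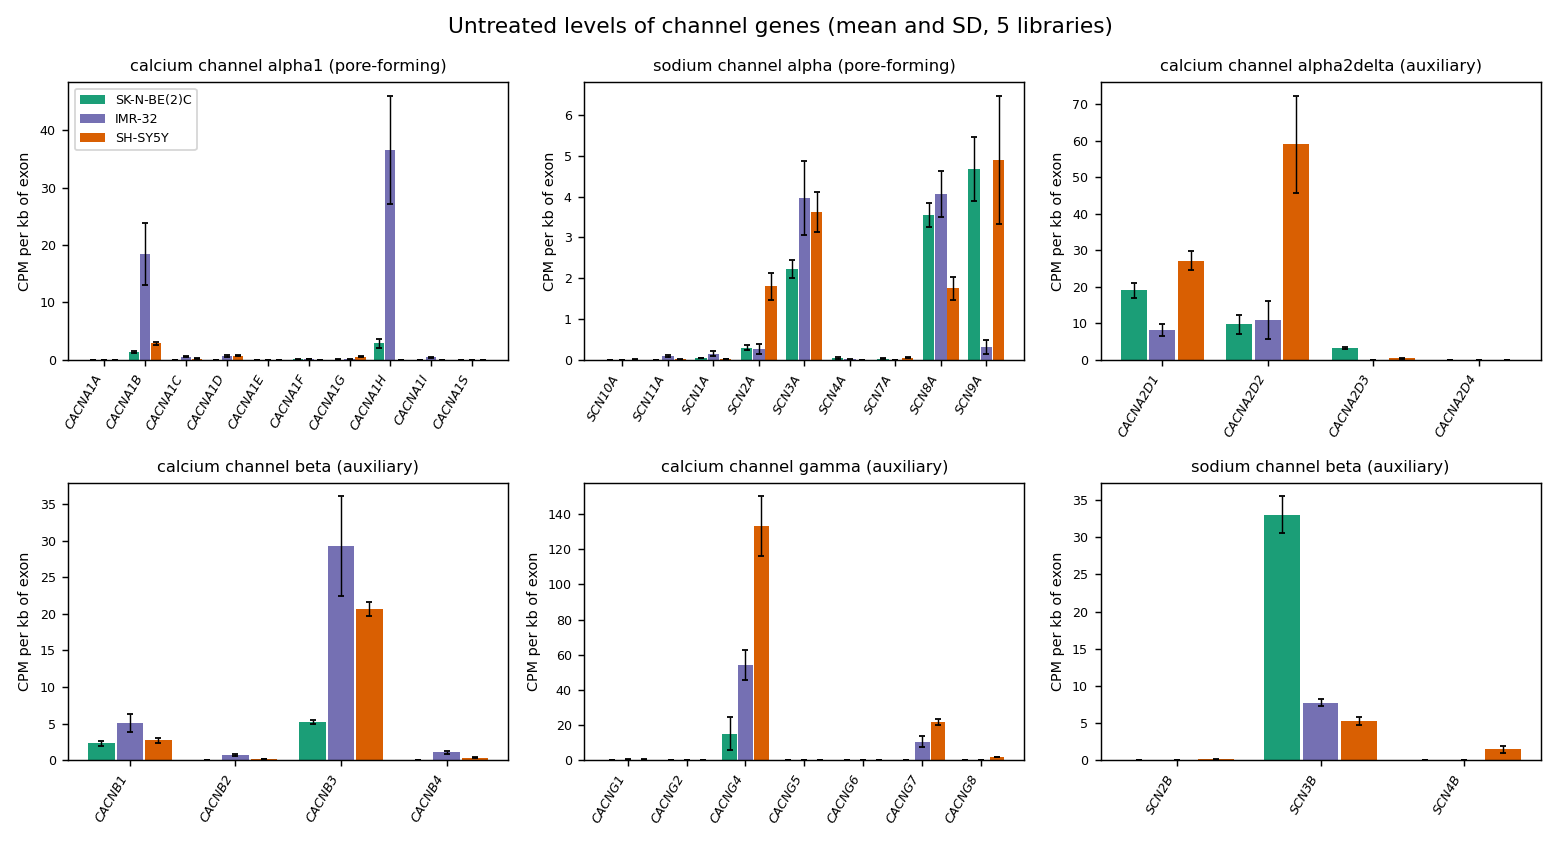
Level of 37 of the 39 channel genes in untreated cells, as CPM per kb of exon (bars, mean of 5 control libraries; lines, SD), by subunit class and line. SCN3B and CACNB3 stand above the rest of their classes in each line, and CACNA1H leads the alpha1 genes in IMR-32 and SK-N-BE(2)C but not in SH-SY5Y.

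After longer PB channel genes were higher in every line, pore-forming genes among them, and few were lower. At 7 d, 17 of 22 tested members were higher in SK-N-BE(2)C and 1 was lower, where 24.5% of all genes tested were called higher and 22.3% lower. After 5 d, 15 of 25 were higher and 2 lower in IMR-32 (all genes 16.6% and 15.5%), and 17 of 26 were higher and 2 lower in SH-SY5Y (all genes 18.6% and 17.3%). Of the 39 members, 32 had enough counts to be tested in at least 1 line, 16 of them in every line, and 7 could be tested in none. Called means an adjusted p under 0.05 in edgeR's quasi-likelihood test, fitted over the 15 libraries of a line, with a log2 fold change beyond 0.5. Median log2 fold changes of the tested members were 1.16, 0.65 and 0.74 against 0.01, 0.00 and 0.01 for all genes tested. Because a gene also passes the count filter when only its treated libraries are high, the members with at least 10 counts on average in controls were counted apart. These were 14 higher and 1 lower of 18 in SK-N-BE(2)C, 15 and 2 of 25 in IMR-32, and 16 and 2 of 24 in SH-SY5Y. The share of all genes under the same limit was not computed. Pore-forming genes were higher in 7 of 10, 10 of 14 and 8 of 10 and lower in none. Auxiliary genes were higher in 10 of 12, 5 of 11 and 9 of 16 and lower in 1, 2 and 2. This split includes genes that passed the filter through treated libraries alone, so that their entry was tied to their rise. Among those higher, they were the pores CACNA1G and SCN7A and the auxiliary SCN2B in SK-N-BE(2)C, and SCN7A in SH-SY5Y. Treated and control libraries did not overlap for 16 of the 18 members called in SK-N-BE(2)C, 12 of 17 in IMR-32 and 13 of 19 in SH-SY5Y. Of all called genes, 84.8%, 78.8% and 84.6% did not overlap, so the members stood apart no more often than other called genes in IMR-32 and SH-SY5Y. Without replicate numbers 4 and 5 the 7 d count in SK-N-BE(2)C was 17 higher and 2 lower, and without number 5 the 5 d count in IMR-32 was 12 higher and 2 lower. The share of all genes in these refits was not computed.

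After 24 h fewer members were called in each line. SK-N-BE(2)C had 8 of 22 higher and 2 lower (all genes 10.9% and 10.6%), and in SH-SY5Y 7 of 26 were higher and none lower (all genes 10.5% and 11.0%). In IMR-32, 1 of 25 was higher and 1 lower, against 7.87% and 10.5% of all genes. For refits that left out libraries the share of all genes was not computed, so their counts describe the members alone. Without the libraries of replicate number 5 the IMR-32 count was 2 higher and 4 lower, without 24 h replicate 5 alone it was 6 in all, and without control 4 or 24 h replicate 2 it was 4. With the replicate number as a block it was 7 in all (all genes 21.8% in either direction), and those added included CACNA1B (log2 fold change 0.50, adjusted p = 0.019), SCN3A (0.50, adjusted p = 0.0028), CACNA1D (-0.59, adjusted p = 0.0072) and SCN1A (-0.90, adjusted p = 0.011). Between 24 h and the longer time, 16 of 22 members rose and none fell in SK-N-BE(2)C (all genes 17.5% and 14.4%), whether or not they had risen by 24 h. In IMR-32 11 of 25 rose and none fell (10.8% and 8.86%), and in SH-SY5Y 5 of 26 rose and 1 fell (10.5% and 6.23%). CACNA1G, CACNB1 and SCN2A rose between these times in all 3 lines. These 3 comparisons share libraries, so they are not independent of each other.

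**Figure D2:**
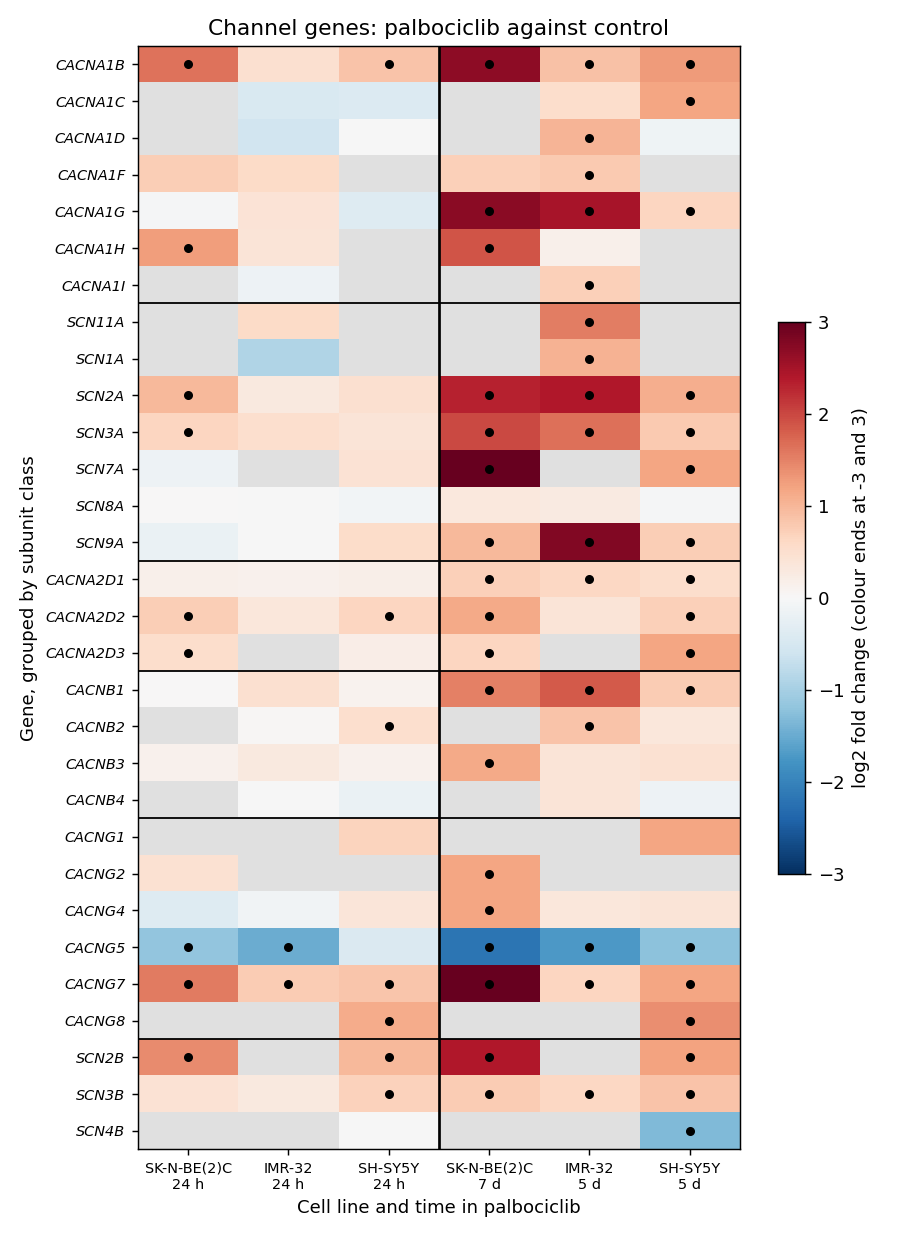
Log2 fold change against control of 30 of the 32 channel genes tested in at least 1 line, by subunit class (rows) and by line at 24 h and the longer time (columns); colour runs from -3 to 3, grey marks genes not tested and black dots mark called changes. At the longer time red fields prevail in each class, with CACNG5 blue in all 3 lines.

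CACNA1B, the pore of the N-type channel at release sites, rose in all 3 lines. Its gene lies at chr9:140772234-141019076 (GRCh37, plus strand), and 47 of its exon bases are also covered by a gene on the other strand. The SK-N-BE(2)C libraries held 14.3, 11.4, 12.7, 14.2 and 16.3 CPM in controls, 41.7, 40.4, 49.2, 44.95 and 43.4 CPM at 24 h and 73.2, 99.3, 107, 81.2 and 93.6 CPM at 7 d. IMR-32 had 222, 206, 172, 222 and 94.3 CPM in controls, 277, 179.8, 266, 305 and 205 CPM at 24 h and 363, 354, 288, 358 and 332 CPM at 5 d. SH-SY5Y had 30.5, 30.03, 26.7, 28.6 and 24.9 CPM in controls, 57.2, 55.4, 49.2, 46.6 and 49.7 CPM at 24 h and 75.0, 74.4, 67.2, 86.0 and 55.1 CPM at 5 d. The 3 stages did not overlap in SK-N-BE(2)C, treated and control libraries did not overlap at either time in SH-SY5Y, and in IMR-32 the 24 h libraries overlapped controls while those at 5 d lay above every control. The log2 fold change at the longer time was 2.68 ± 0.11 (adjusted p = 1.25e-11) in SK-N-BE(2)C, 0.88 ± 0.19 (adjusted p = 0.00133) in IMR-32 and 1.27 ± 0.09 (adjusted p = 4.08e-09) in SH-SY5Y, each ± SE by edgeR. At 24 h it was already 1.64 ± 0.11 (adjusted p = 7.35e-09) and 0.86 ± 0.09 (adjusted p = 6.85e-07) in SK-N-BE(2)C and SH-SY5Y, and 0.48 ± 0.19 (adjusted p = 0.0645) in IMR-32. The response differed between lines at 24 h (adjusted p = 0.00067, all genes 9.43% called) and at the longer time (adjusted p = 1.2e-08, all genes 52.4% called), by an F test on 2 degrees of freedom in the fit of 45 libraries. Between control and 7 d CACNA1B went from 32.0% to 44.6% of the alpha1 class sum per kb in SK-N-BE(2)C, while CACNA1H went from 65.6% to 53.3%.

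Promoter sequences are shown for CACNA1B and SCN9A, which rose in all lines, for CACNB1, the auxiliary beta subunit that rose in all lines, and for SCN2A, whose window had the lowest share of G and C of the 39 member windows. Each is the 250 bases upstream of a RefSeq transcript start on GRCh38.p14, 5′ to 3′ on the gene's strand, a different build from that of the counts. Capitals mark the letters GGGCGG (the GC box bound by SP factors), CAGCTG (an E-box) or TTTGAA (the CHR element of cell-cycle genes), on either strand, so that CCGCCC is GGGCGG and TTCAAA is TTTGAA read on the other strand, and overlapping matches run together.
CACNA1B, chr9:137877532-137877781, plus strand: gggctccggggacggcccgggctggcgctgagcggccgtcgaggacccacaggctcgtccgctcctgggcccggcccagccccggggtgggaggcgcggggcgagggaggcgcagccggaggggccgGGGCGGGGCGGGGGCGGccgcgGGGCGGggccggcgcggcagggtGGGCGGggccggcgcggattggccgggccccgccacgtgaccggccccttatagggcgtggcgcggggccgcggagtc
SCN9A, chr2:166375945-166376194, minus strand: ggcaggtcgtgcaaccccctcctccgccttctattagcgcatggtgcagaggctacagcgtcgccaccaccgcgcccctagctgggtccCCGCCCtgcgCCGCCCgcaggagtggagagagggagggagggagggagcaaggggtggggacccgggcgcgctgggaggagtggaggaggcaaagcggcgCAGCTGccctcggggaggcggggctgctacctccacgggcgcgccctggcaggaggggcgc
CACNB1, chr17:39197670-39197919, minus strand: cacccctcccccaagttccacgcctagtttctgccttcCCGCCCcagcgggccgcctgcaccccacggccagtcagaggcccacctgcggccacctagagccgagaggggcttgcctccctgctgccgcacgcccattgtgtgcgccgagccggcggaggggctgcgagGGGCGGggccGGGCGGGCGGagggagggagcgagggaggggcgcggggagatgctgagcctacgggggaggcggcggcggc
SCN2A, chr2:165239164-165239413, plus strand: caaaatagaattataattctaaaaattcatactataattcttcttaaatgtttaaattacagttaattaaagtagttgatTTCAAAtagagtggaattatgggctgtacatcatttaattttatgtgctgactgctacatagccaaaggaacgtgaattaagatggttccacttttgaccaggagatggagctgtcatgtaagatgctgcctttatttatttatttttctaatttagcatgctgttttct

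G and C made up 85.2% of the CACNA1B window, 74.0% of that of SCN9A and 76.4% of that of CACNB1, but 29.2% of the SCN2A window, which has TTTGAA and no GC box. Of the 39 members 25 matched the RefSeq table, with 39 windows, and their median G and C share was 62.4% against 58.0% over all 35116 windows. GGGCGG was in 20 of the 39 member windows (51.3%) against 42.6% of all windows, CAGCTG in 9 (23.1%) against 14%, TTTGAA in 7 (17.9%) against 13.3% and TATAAA in 2 (5.13%) against 10.7%. Parts of the RE1 element bound by the neuronal gene repressor REST (TTCAGCACC and GACAGCGCC) were in none of the member windows and in 0.288% and 0.416% of all windows, and the E2F sites TTTCCCGC and TTTGGCGC were in none against 1.39% and 0.55%. Both strands were searched, and matches of different motifs may share bases. These are matches of letters in a short window and were not tested as binding sites.

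Of the T-type pores, which open near the resting potential, CACNA1G was higher after longer PB in all 3 lines, while CACNA1H was higher in SK-N-BE(2)C and not called in IMR-32. CACNA1G was low in SK-N-BE(2)C controls, at 0.515, 0.175, 0.499, 0.0743 and 0.270 CPM, held 0.250, 0.629, 0.241, 0.167 and 0.242 CPM at 24 h and reached 2.08, 4.16, 2.06, 1.48 and 1.05 CPM at 7 d. It read 0.619, 0.251, 0.490, 1.25 and 0.115 CPM in IMR-32 controls, 1.03, 0.601, 0.942, 0.923 and 0.0626 CPM at 24 h and 3.37, 3.16, 2.01, 3.40 and 4.03 CPM at 5 d. In SH-SY5Y the values were 5.95, 6.42, 5.84, 4.53 and 4.55 CPM in controls, 3.98, 4.95, 5.28, 3.96 and 3.09 CPM at 24 h and 17.4, 8.43, 7.10, 8.12 and 4.17 CPM at 5 d. The longer-time libraries lay above all others in IMR-32 and SK-N-BE(2)C, but in SH-SY5Y replicate 5 was below its controls and replicate 1 far above the rest. The log2 fold changes were 2.70 ± 0.45 (adjusted p = 5.30e-05), 2.48 ± 0.49 (adjusted p = 6.98e-04) and 0.65 ± 0.26 (adjusted p = 0.0385). CACNA1G passed the count filter of SK-N-BE(2)C through its 7 d libraries alone. In SH-SY5Y the call was lost in 6 of 10 fits that left out 1 library (controls 1, 3, 4 or 5, 5 d replicates 1 or 2; adjusted p from 0.052 to 0.19), and without 5 d replicate 1 the log2 fold change was 0.29. None of the 3 lines showed a called change at 24 h.

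CACNA1H rose in SK-N-BE(2)C, from 32.7, 16.1, 20.7, 22.9 and 25.7 CPM in controls to 62.5, 50.5, 57.0, 61.4 and 58.2 CPM at 24 h and 74.8, 94.3, 104, 92.9 and 86.2 CPM at 7 d. No library of one stage overlapped another, and the log2 fold change was 1.26 ± 0.14 (adjusted p = 3.06e-06) at 24 h and 1.90 ± 0.14 (adjusted p = 1.08e-08) at 7 d. IMR-32, which had the highest level of the gene, held 338, 340.2, 290.0, 370.5 and 173 CPM in controls, 441, 320.0, 413, 472 and 270.2 CPM at 24 h and 364, 371, 312, 342 and 305 CPM at 5 d. Those groups overlapped, control 5 was the lowest library, and the log2 fold change at 5 d was 0.15 ± 0.18 (adjusted p = 0.480). The response differed between lines at 24 h (adjusted p = 0.016) and at the longer time (adjusted p = 7.7e-08), although SH-SY5Y contributed almost no reads to this test. The third T-type gene, CACNA1I, was tested in IMR-32 alone, where it went from 5.75, 4.06, 3.81, 6.27 and 2.70 CPM in controls to 6.92, 7.36, 6.76, 6.08 and 10.4 CPM at 5 d, where 1 library at 5 d lay below the highest control. Its log2 fold change of 0.72 ± 0.28 (adjusted p = 0.0424) fell short of a call in 7 of 10 fits with 1 library left out (controls 2, 3 or 5, 5 d replicates 1, 2, 3 or 5; adjusted p from 0.054 to 0.11), and without replicate number 5 in all groups it was 0.43 (adjusted p = 0.045), under the fold limit.

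The L-type pores CACNA1C, CACNA1D and CACNA1F were each called against control in 1 line, at the longer time. CACNA1D, which opens at lower voltage than other L-type channels and serves pacemaking, rose in IMR-32 from 9.46, 8.42, 6.15, 9.49 and 5.92 CPM in controls to 16.1, 23.7, 13.6, 19.0 and 8.79 CPM at 5 d, after 5.18, 5.41, 5.75, 6.78 and 2.57 CPM at 24 h. Replicate 5 was the lowest library at each time, and its 5 d value lay within the control range. The log2 fold change was 1.03 ± 0.26 (adjusted p = 0.00385) against control and 1.59 ± 0.26 (adjusted p = 3.30e-04) against 24 h. In SH-SY5Y, with the same gene at 8.79 ± 1.32 CPM in controls and 8.47 ± 2.38 CPM at 5 d (mean ± SD, n = 5), the log2 fold change was -0.12 ± 0.17 (adjusted p = 0.526), and the response differed between lines (adjusted p = 0.00036). It has 1399 exon bases under the gene CHDH on the opposite strand, and the sources used here do not say which strand was counted.

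CACNA1C, the L-type pore of heart and brain, rose in SH-SY5Y from 2.997, 3.21, 2.29, 3.82 and 3.12 CPM in controls to 7.56, 9.10, 6.76, 7.50 and 5.98 CPM at 5 d, through 1.96, 2.74, 2.08, 2.55 and 2.30 CPM at 24 h. Every 5 d library lay above every earlier one, and the log2 fold change was 1.18 ± 0.15 (adjusted p = 1.85e-06) against control and 1.60 ± 0.16 (adjusted p = 1.25e-06) against 24 h. In IMR-32 controls held 7.36 to 10.1 CPM and the 5 d libraries 8.11 to 22.1 CPM, with a log2 fold change of 0.53 ± 0.26 (adjusted p = 0.102) against control and a called 0.98 ± 0.27 (adjusted p = 0.0106) against 24 h. SK-N-BE(2)C had almost no CACNA1C reads before treatment (0.141, 0, 0, 0 and 0 CPM) and 1.45, 1.30, 1.09, 1.08 and 0.496 CPM at 7 d, too few for the count filter. The responses that could be compared differed between lines (adjusted p = 4e-06). CACNA1F, the L-type pore of the retina, was at 1.42, 1.05, 0.925, 0.919 and 0.345 CPM in IMR-32 controls and 2.27, 1.53, 1.15, 1.10 and 2.07 CPM at 5 d. These overlapped, and the call (log2 fold change 0.77 ± 0.30, adjusted p = 0.0433) was lost in 7 of 10 fits with 1 library left out (adjusted p from 0.059 to 0.12; controls 2 to 5, 5 d replicates 1, 2 or 5). Without number 5 in all groups it was 0.47 (adjusted p = 0.15). CACNA1A, CACNA1E and CACNA1S, the P/Q-type, R-type and skeletal muscle pores, were under 1 CPM on average in every group and tested in no line.

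**Figure D3:**
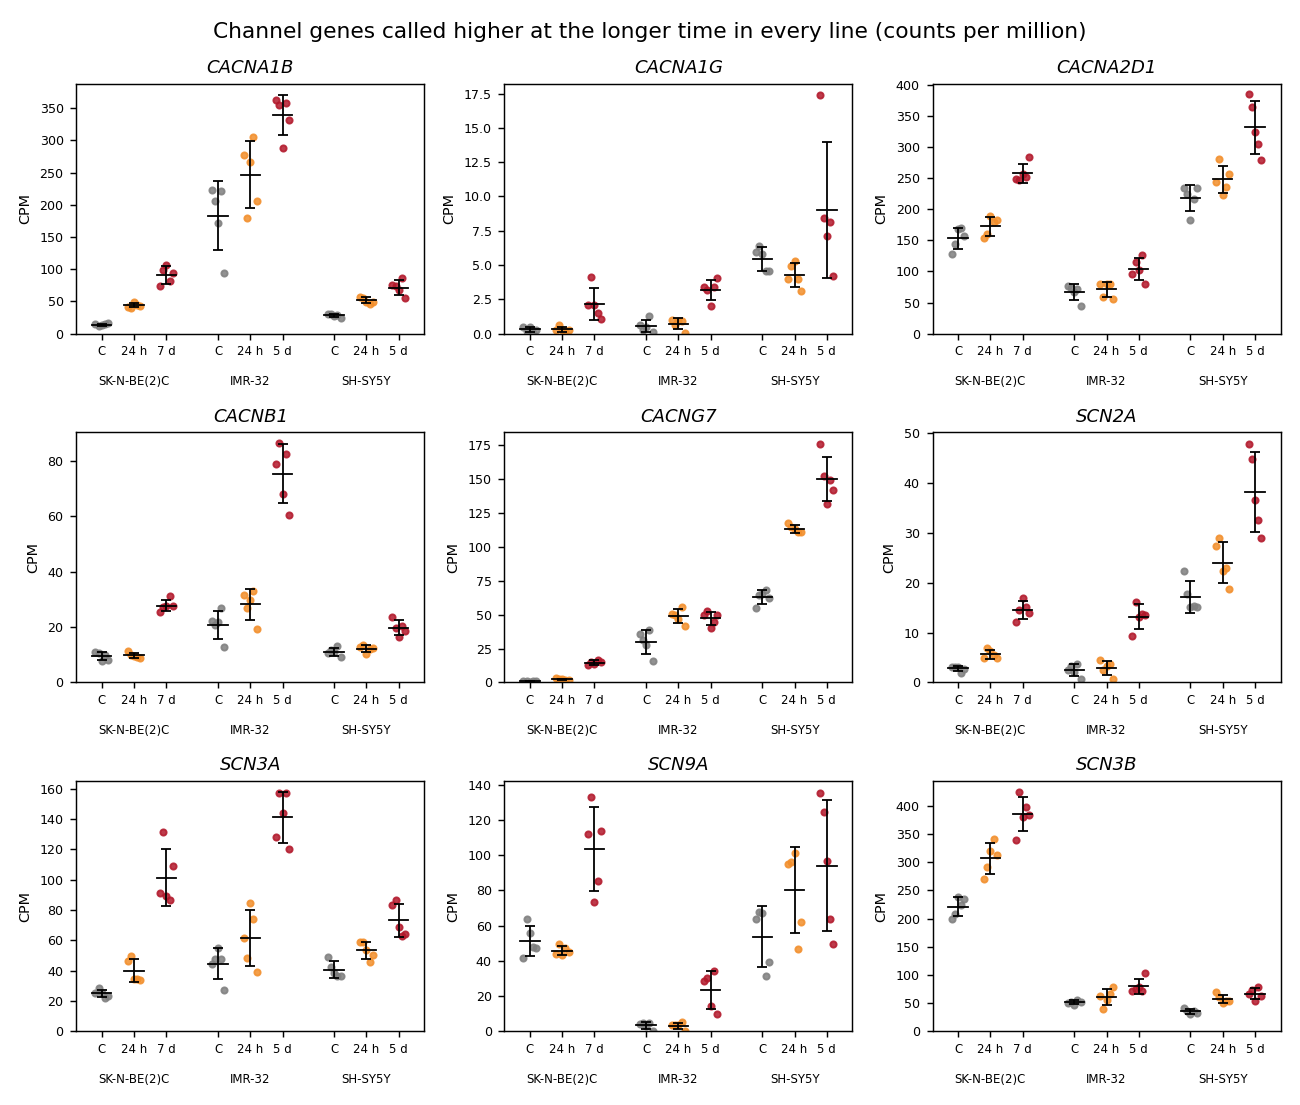
CPM of the 9 channel genes called higher after longer PB in every line, for control, 24 h and longer PB in each line (points, libraries; bars, mean and SD of 5; axes start at 0). The SK-N-BE(2)C and SH-SY5Y points climb from stage to stage for CACNA1B and SCN3A, and 1 IMR-32 control, replicate 5, lies low in several panels.

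Most calls of sodium channel alpha genes were in a cluster on chromosome 2. SCN3A, SCN2A, SCN1A, SCN9A and SCN7A span chr2:165944036-167467992 (GRCh37), with gaps under 1 Mb. At the longer time SCN3A, SCN2A and SCN9A were higher in each line, as were SCN1A in IMR-32 and SCN7A in the other lines, each tested there alone. SCN7A passed the count filter in both lines through treated libraries alone, so its entry was tied to its rise. Of tested alpha genes elsewhere 0 of 2, 1 of 3 and 1 of 2 were higher, and of all genes 24.5%, 16.6% and 18.6%. With so few genes no test of the difference was made.

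SCN2A, a pore of the axon initial segment of excitatory neurons, had its smallest fold change in SH-SY5Y. SK-N-BE(2)C held 3.18, 3.03, 3.19, 1.86 and 2.76 CPM in controls, 4.89, 6.92, 6.21, 5.58 and 4.80 CPM at 24 h and 12.1, 14.6, 17.0, 15.2 and 13.9 CPM at 7 d. In IMR-32 the reads amounted to 2.43, 3.31, 2.01, 3.76 and 0.747 CPM in controls, 4.45, 2.45, 3.37, 3.69 and 0.626 CPM at 24 h and 9.31, 16.2, 13.1, 13.6 and 13.6 CPM at 5 d, and in SH-SY5Y to 22.4, 17.8, 15.1, 15.4 and 15.1 CPM in controls, 27.3, 28.9, 22.3, 22.9 and 18.7 CPM at 24 h and 47.8, 44.9, 36.5, 32.6 and 28.9 CPM at 5 d. Longer-time libraries lay above every control of the same line in all 3 lines, and above every 24 h library except in SH-SY5Y. IMR-32 replicate 5, lowest in control and at 24 h, was level with the others at 5 d. The log2 fold change was 2.31 ± 0.15 (adjusted p = 1.43e-09) in SK-N-BE(2)C, 2.40 ± 0.40 (adjusted p = 1.89e-04) in IMR-32 and 1.08 ± 0.15 (adjusted p = 4.76e-06) in SH-SY5Y. At 24 h a call was made in SK-N-BE(2)C alone (0.97 ± 0.15, adjusted p = 6.53e-05), beside 0.47 ± 0.15 (adjusted p = 0.0133) in SH-SY5Y and 0.30 ± 0.40 (adjusted p = 0.610) in IMR-32, and the difference between lines at 24 h was not called.

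SCN3A, the sodium channel prominent in the developing brain, was the highest of the chromosome 2 genes per kb in IMR-32 controls. SK-N-BE(2)C libraries went from 25.3, 28.6, 25.4, 22.1 and 23.5 CPM in controls through 46.6, 49.4, 34.8, 34.4 and 34.0 CPM at 24 h to 91.4, 131, 89.2, 86.5 and 109 CPM at 7 d. IMR-32 went from 44.3, 47.6, 54.9, 47.8 and 27.5 CPM in controls through 61.7, 48.2, 84.5, 74.2 and 38.9 CPM at 24 h to 128, 157, 144, 157 and 120.4 CPM at 5 d, and SH-SY5Y from 49.3, 42.7, 38.1, 36.2 and 36.4 CPM in controls through 58.6, 59.0, 53.5, 45.4 and 50.6 CPM at 24 h to 83.1, 86.4, 68.8, 62.9 and 64.5 CPM at 5 d. Each longer-time library was above all controls and all 24 h libraries of its line. The log2 fold changes were 1.97 ± 0.14 (adjusted p = 3.97e-09), 1.66 ± 0.20 (adjusted p = 1.03e-05) and 0.78 ± 0.10 (adjusted p = 2.08e-06), and the response differed between lines (adjusted p = 0.00014). SCN3A was 26.2% of the class sum per kb in IMR-32 controls and 45.5% at 5 d. Its exons overlap 713 bases of genes on the opposite strand.

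SCN9A, the pore known from pain-sensing and sympathetic neurons, rose with a wider spread. The SK-N-BE(2)C values were 41.7, 64.0, 55.5, 47.9 and 47.0 CPM in controls, 43.7, 49.3, 43.4, 47.4 and 44.8 CPM at 24 h and 112, 133, 73.5, 85.02 and 114 CPM at 7 d. IMR-32 gave 4.24, 4.91, 2.83, 4.60 and 0.287 CPM in controls, 3.76, 3.51, 3.42, 5.10 and 0.376 CPM at 24 h and 28.4, 30.1, 14.4, 34.4 and 9.52 CPM at 5 d, and SH-SY5Y 63.6, 67.8, 67.0, 31.4 and 39.0 CPM in controls, 94.9, 96.0, 101, 46.7 and 61.7 CPM at 24 h and 135, 125, 96.8, 63.8 and 49.5 CPM at 5 d. In IMR-32 and SK-N-BE(2)C the longer-time libraries lay above all others. In SH-SY5Y the groups overlapped, and replicates 4 and 5 were the lowest of each group. The log2 fold change was 0.97 ± 0.14 (adjusted p = 1.62e-05) in SK-N-BE(2)C, 2.77 ± 0.58 (adjusted p = 0.00126) in IMR-32 and 0.73 ± 0.31 (adjusted p = 0.0498) in SH-SY5Y. The SH-SY5Y call was lost in 6 of 10 fits with 1 library left out (controls 1, 4 or 5, 5 d replicates 1, 2 or 3; adjusted p from 0.056 to 0.14). With the replicate block the SH-SY5Y change at 24 h was also called (log2 fold change 0.57, adjusted p = 0.00024), where the unblocked value was 0.56 ± 0.31 (adjusted p = 0.150). SCN9A has 849 exon bases under an antisense transcript, the same that covers 767 bases of SCN1A.

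SCN7A, which encodes a sodium-sensing channel with little voltage dependence, appeared late in SK-N-BE(2)C. Controls held 0.141, 0.175, 0.249, 0.371 and 0.216 CPM, 24 h libraries 0.300, 0.0393, 0.302, 0.223 and 0.194 CPM and 7 d libraries 2.15, 3.56, 3.53, 3.46 and 4.41 CPM. The 7 d libraries stood far above the others, with a log2 fold change of 3.87 ± 0.33 (adjusted p = 2.71e-08), and it was through them alone that the gene passed the count filter. In SH-SY5Y it was at 0.633, 0.368, 0.313, 0.382 and 0.370 CPM in controls and 0.840, 1.84, 1.25, 0.560 and 0.544 CPM at 5 d, overlapping, and passed the filter through its 24 h and 5 d libraries alone. Its log2 fold change of 1.19 ± 0.45 (adjusted p = 0.0262) was not called in 4 of 10 fits with 1 library left out (controls 3 or 5, 5 d replicates 2 or 3; adjusted p from 0.05 to 0.11). SCN1A, the pore of fast-spiking interneurons, was at 2.83, 3.01, 2.504, 2.67 and 0.575 CPM in IMR-32 controls, 1.37, 1.10, 1.54, 1.79 and 0.188 CPM at 24 h and 4.60, 5.72, 4.30, 6.63 and 2.80 CPM at 5 d. Replicate 5 was the lowest at each time, and its 5 d value lay within the control range. The 5 d log2 fold change of 1.03 ± 0.41 (adjusted p = 0.0462) lost its call in 9 of 10 fits with 1 library left out, all but 5 d replicate 5 (adjusted p from 0.052 to 0.11), while the change from 24 h to 5 d was 1.93 ± 0.43 (adjusted p = 0.00322). SK-N-BE(2)C had under 1 CPM of SCN1A in each library, and the gene was not tested there.

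Of the alpha genes elsewhere, SCN11A, a sensory neuron channel that resists tetrodotoxin, rose in IMR-32 from 0.928, 1.05, 0.817, 0.794 and 0.460 CPM in controls to 2.09, 3.43, 1.38, 3.40 and 1.57 CPM at 5 d with no overlap (log2 fold change 1.52 ± 0.29, adjusted p = 4.48e-04). SCN8A, the main pore of mature axon initial segments and nodes, was the second highest alpha gene per kb in controls of SK-N-BE(2)C, and it was not called in any line. Its means were 42.6 ± 3.53 and 54.6 ± 8.54 CPM in control and 7 d libraries of SK-N-BE(2)C, 48.7 ± 6.70 and 59.3 ± 8.68 CPM in IMR-32 and 20.9 ± 3.44 and 21.6 ± 2.52 CPM in SH-SY5Y (± SD, n = 5). The longer-time log2 fold changes were 0.31 ± 0.09 (adjusted p = 0.00755), 0.27 ± 0.16 (adjusted p = 0.171) and -0.02 ± 0.11 (adjusted p = 0.860), all within 0.5. SCN4A and SCN10A, the skeletal muscle and a sensory neuron channel, were under 1 CPM on average in every group and not tested.

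Among auxiliary genes, CACNA2D1, the alpha2delta subunit that binds gabapentin, rose in all 3 lines. SK-N-BE(2)C had 128, 144, 168, 169.5 and 156 CPM in controls, 153, 160.1, 189, 179.9 and 182 CPM at 24 h and 248, 247, 257, 252 and 284 CPM at 7 d. IMR-32 had 77.0, 72.8, 67.5, 72.5 and 43.9 CPM in controls, 79.9, 59.3, 80.4, 80.2 and 56.2 CPM at 24 h and 95.5, 115, 102, 127 and 79.8 CPM at 5 d, and SH-SY5Y had 234, 225, 183, 216 and 234 CPM in controls, 244, 280.3, 224, 235 and 257 CPM at 24 h and 385, 364, 325, 306 and 279.8 CPM at 5 d. Longer-time libraries lay above all controls in each line. The log2 fold changes were 0.71 ± 0.08 (adjusted p = 3.66e-07), 0.62 ± 0.15 (adjusted p = 0.00306) and 0.53 ± 0.08 (adjusted p = 2.42e-05), and a difference between lines was not called (adjusted p = 0.704). In SH-SY5Y the value fell under the fold limit, to between 0.47 and 0.49, in the 3 fits without control 3, 5 d replicate 1 or 5 d replicate 2. CACNA2D2, which serves as an alpha2delta subunit in brain and lung, rose in SK-N-BE(2)C from 79.3, 65.9, 43.3, 48.4 and 48.2 CPM in controls to 117, 107, 83.8, 89.6 and 90.1 CPM at 24 h and 117, 126, 119.6, 136 and 144 CPM at 7 d (0.74 ± 0.15, adjusted p = 8.09e-04, and 1.13 ± 0.15, adjusted p = 6.40e-06). In SH-SY5Y the values were 259, 466, 324, 379 and 311 CPM in controls, 417, 729.8, 548, 539 and 505 CPM at 24 h and 713, 585, 557, 791 and 361 CPM at 5 d, overlapping at both times, with log2 fold changes of 0.64 ± 0.20 (adjusted p = 0.0158) at 24 h and 0.72 ± 0.20 (adjusted p = 0.00575) at 5 d. Without 24 h replicate 2 the former had an adjusted p of 0.055. IMR-32 libraries of number 5 were at 13.8, 20.04 and 40.8 CPM while the other libraries of this gene ranged from 59.9 to 127 CPM, and the 5 d change of 0.39 ± 0.48 (adjusted p = 0.516) was called with the replicate block (0.55, adjusted p = 0.041). CACNA2D3 rose in SK-N-BE(2)C (11.7, 12.5, 13.4, 13.9 and 12.6 CPM in controls to 19.2, 21.2, 20.2, 21.3 and 20.6 CPM at 7 d, 0.64 ± 0.06, adjusted p = 1.87e-07) and in SH-SY5Y (2.15, 1.999, 1.20, 1.38 and 1.06 CPM in controls to 2.74, 3.63, 5.55, 3.19 and 3.503 CPM at 5 d, 1.18 ± 0.25, adjusted p = 4.59e-04), with no overlap in either. It was not tested in IMR-32, and CACNA2D4 was under 1 CPM on average in every group.

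CACNB1, a beta subunit that binds the pore inside the cell, rose late in each line. SK-N-BE(2)C controls held 11.0, 10.49, 7.83, 9.81 and 7.95 CPM, 24 h libraries 11.3, 9.87, 9.47, 9.14 and 8.83 CPM and 7 d libraries 25.4, 27.1, 27.5, 31.1 and 27.5 CPM. In IMR-32 they held 22.3, 20.7, 21.6, 26.7 and 12.9 CPM in controls, 31.6, 26.8, 29.9, 33.1 and 19.2 CPM at 24 h and 78.9, 86.2, 68.0, 82.3 and 60.5 CPM at 5 d. SH-SY5Y held 10.51, 11.8, 10.9, 13.1 and 9.20 CPM in controls, 12.6, 13.5, 10.1, 12.02 and 12.4 CPM at 24 h and 23.7, 19.5, 16.3, 20.3 and 18.7 CPM at 5 d. Every longer-time library exceeded every control and 24 h library of its line, while 24 h libraries overlapped controls. The log2 fold changes at the longer time were 1.51 ± 0.11 (adjusted p = 3.28e-09), 1.84 ± 0.17 (adjusted p = 1.36e-06) and 0.75 ± 0.11 (adjusted p = 8.99e-06), and they differed between lines (adjusted p = 0.0001). From 24 h to the longer time the gene rose by 1.499, 1.36 and 0.64 on the log2 scale. In IMR-32 its share of the beta class sum per kb went from 14.0% to 30.6%.

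CACNB3, the leading beta subunit, rose past both limits in SK-N-BE(2)C, from 18.3, 15.7, 16.5, 17.3 and 17.9 CPM in controls to 31.4, 42.3, 46.0, 35.2 and 39.5 CPM at 7 d with no overlap (log2 fold change 1.14 ± 0.09, adjusted p = 1.94e-08). In SH-SY5Y it went from 67.4, 68.8, 71.0, 69.7 and 62.5 CPM in controls to 120.5, 104, 90.1, 99.0 and 78.4 CPM at 5 d, also with no overlap, and the log2 fold change of 0.46 ± 0.08 (adjusted p = 9.26e-05) stayed under the fold limit. The IMR-32 value was 0.39 ± 0.18 (adjusted p = 0.0849), with control 5 at 57.1 CPM and the other controls at 102 to 114 CPM. CACNB2, a beta subunit of heart and brain, rose in IMR-32 from 6.28, 5.36, 7.67, 5.10 and 5.17 CPM in controls to 8.78, 8.12, 10.7, 11.4 and 14.4 CPM at 5 d with no overlap (log2 fold change 0.84 ± 0.16, adjusted p = 5.42e-04). In SH-SY5Y the call for CACNB2 at 24 h (0.51 ± 0.16, adjusted p = 0.0156) was lost in 5 of 10 fits with 1 library left out (controls 1, 4 or 5, 24 h replicates 2 or 3), where the log2 fold change was between 0.43 and 0.49. CACNB4, a beta subunit of the cerebellum, was at 14.9 ± 3.56 and 19.6 ± 2.40 CPM in control and 5 d libraries of IMR-32 and at 4.82 ± 0.663 and 4.57 ± 0.542 CPM in SH-SY5Y (mean ± SD, n = 5), with no call. SK-N-BE(2)C controls had no CACNB4 reads in any of 5 libraries.

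CACNG7, a gamma subunit that acts on AMPA receptors, was the member called higher in all 3 lines already at 24 h. SK-N-BE(2)C had 0.702, 0.746, 0.449, 0.892 and 1.03 CPM in controls, 2.90, 2.24, 2.65, 1.45 and 2.13 CPM at 24 h and 12.8, 15.01, 13.5, 16.8 and 15.2 CPM at 7 d. IMR-32 had 35.5, 31.6, 27.9, 38.8 and 15.6 CPM in controls, 50.5, 49.8, 46.4, 55.3 and 41.3 CPM at 24 h and 49.4, 52.4, 40.4, 44.3 and 49.9 CPM at 5 d. In SH-SY5Y the libraries held 54.8, 64.4, 65.1, 68.1 and 62.2 CPM in controls, 117, 114, 113, 111 and 111 CPM at 24 h and 176, 152, 132, 149 and 142 CPM at 5 d. The longer-time libraries did not overlap controls in any of the lines. At the longer time the log2 fold change was 4.23 ± 0.20 (adjusted p = 5.76e-11) in SK-N-BE(2)C, the largest among the members tested there, beside 0.65 ± 0.17 (adjusted p = 0.00560) in IMR-32 and 1.18 ± 0.07 (adjusted p = 2.59e-10) in SH-SY5Y. The difference between lines was called (adjusted p = 4e-14). In IMR-32 the value was 0.49, under the fold limit, without control 5, and 0.47 (adjusted p = 0.0011) without number 5 in all groups. Beside CACNG7 on chromosome 19 lies CACNG8, a related AMPA receptor partner, which rose in SH-SY5Y from 17.9, 17.1, 15.7, 18.9 and 16.5 CPM in controls to 42.5, 37.4, 35.8, 32.9 and 39.6 CPM at 24 h and 55.6, 53.0, 45.9, 46.1 and 39.2 CPM at 5 d with no overlap (1.11 ± 0.09, adjusted p = 1.59e-08, and 1.40 ± 0.09, adjusted p = 9.37e-10). It was not tested in the other lines. CACNG6, the third gene there, was under 1 CPM on average in every group.

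CACNG4 was high in IMR-32 and SH-SY5Y and split within SK-N-BE(2)C. SK-N-BE(2)C controls held 87.9, 92.2, 28.2, 28.0 and 33.3 CPM, 24 h libraries 71.5, 73.1, 21.9, 22.9 and 22.6 CPM and 7 d libraries 132, 168, 112, 106 and 115 CPM. Replicates 1 and 2 were far above replicates 3 to 5 before treatment and at 24 h, and all 7 d libraries lay above all others. The log2 fold change at 7 d was 1.17 ± 0.44 (adjusted p = 0.0271). It lost its call without control 3, 4 or 5 or without 7 d replicate 2 (adjusted p from 0.061 to 0.066), and without replicate numbers 4 and 5 it was 0.93 (adjusted p = 0.15). In IMR-32 and SH-SY5Y the gene had 0.34 ± 0.16 (adjusted p = 0.0816) and 0.39 ± 0.10 (adjusted p = 0.00144), not called. CACNG2 (stargazin), the first AMPA receptor partner known, rose in SK-N-BE(2)C from 2.25, 1.45, 0.998, 1.11 and 1.35 CPM in controls to 2.27, 3.83, 4.41, 2.55 and 3.96 CPM at 7 d with no overlap (1.20 ± 0.26, adjusted p = 6.13e-04).

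CACNG5, also described as an AMPA receptor partner, was the member called lower in all 3 lines. It was read at 0.843, 1.14, 0.449, 0.743 and 0.919 CPM in SK-N-BE(2)C controls, 0.749, 0.393, 0.181, 0.223 and 0.242 CPM at 24 h and 0.0631, 0.162, 0.126, 0.510 and 0.0551 CPM at 7 d. IMR-32 had 3.54, 2.81, 2.67, 4.09 and 1.95 CPM in controls, 1.17, 0.551, 1.04, 1.95 and 0.438 CPM at 24 h and 1.10, 0.709, 0.974, 0.658 and 1.12 CPM at 5 d, and SH-SY5Y 1.18, 1.47, 0.730, 2.67 and 1.59 CPM in controls, 0.890, 1.17, 0.653, 0.911 and 2.04 CPM at 24 h and 0.616, 0.669, 0.434, 1.23 and 0.483 CPM at 5 d. These are low levels: the IMR-32 libraries at 5 d lay below all its controls, whereas 1 or more treated libraries overlapped controls in the other lines. The log2 fold changes at the longer time were -2.19 ± 0.50 (adjusted p = 9.81e-04), -1.73 ± 0.33 (adjusted p = 5.80e-04) and -1.23 ± 0.38 (adjusted p = 0.00827). In SK-N-BE(2)C the gene passed the count filter through its controls alone, and its 24 h call (-1.20 ± 0.44, adjusted p = 0.0364) was lost in 8 of 10 fits with 1 library left out, all but control 3 and 24 h replicate 1 (adjusted p from 0.05 to 0.097). CACNG5 lies beside CACNG4 and CACNG1 on chromosome 17. CACNG1, the skeletal muscle gamma subunit, was under 1 CPM on average in every group. It was tested in SH-SY5Y, where it passed the filter through the 5 d libraries alone, and was not called there. In the fit of 45 libraries its longer-time response differed between lines (adjusted p = 0.023).

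**Figure D4:**
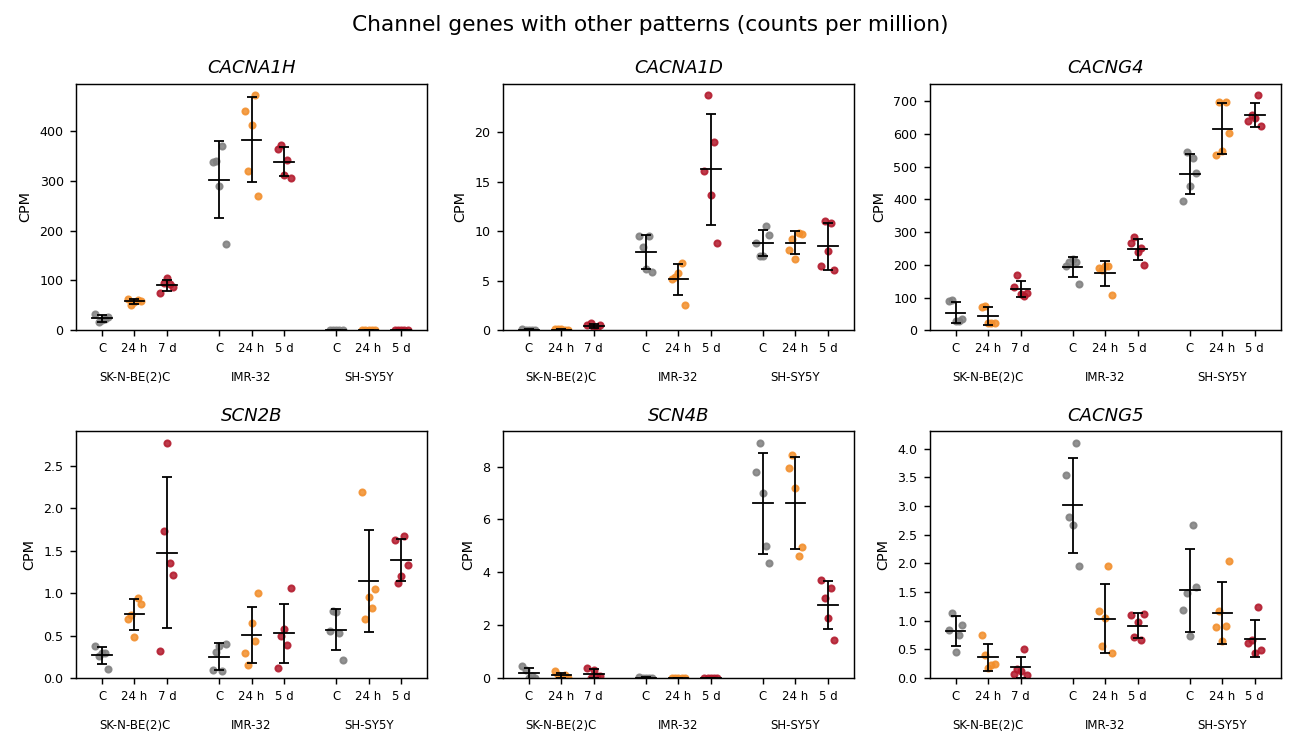
CPM of CACNA1H, CACNA1D, CACNG4, SCN2B, SCN4B and CACNG5 in control, 24 h and longer PB libraries of each line (points, libraries; bars, mean and SD of 5; axes start at 0). CACNA1H climbs in SK-N-BE(2)C alone, SCN4B is read in SH-SY5Y and drops at 5 d, and CACNG5 drops in each line.

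SCN3B, the beta subunit that led its class, rose in each line. SK-N-BE(2)C went from 199, 208, 239, 223 and 234 CPM in controls through 270.2, 291, 319.9, 341 and 312 CPM at 24 h to 340.1, 424, 381, 398 and 383 CPM at 7 d. IMR-32 went from 50.4, 52.6, 46.6, 55.1 and 52.8 CPM in controls through 62.7, 40.3, 56.3, 66.8 and 79.2 CPM at 24 h to 71.1, 75.2, 78.5, 70.7 and 103 CPM at 5 d, and SH-SY5Y from 41.1, 35.5, 30.6, 36.1 and 32.7 CPM in controls through 69.0, 61.5, 50.7, 54.0 and 53.5 CPM at 24 h to 65.8, 73.2, 53.1, 78.9 and 62.1 CPM at 5 d. Treated libraries lay above controls at both times in SK-N-BE(2)C and SH-SY5Y, and at 5 d in IMR-32. The log2 fold changes were 0.76 ± 0.07 (adjusted p = 3.92e-08), 0.62 ± 0.14 (adjusted p = 0.00189) and 0.85 ± 0.10 (adjusted p = 1.39e-06) at the longer time, and 0.44 ± 0.07 (adjusted p = 4.70e-05), 0.28 ± 0.14 (adjusted p = 0.133) and 0.70 ± 0.10 (adjusted p = 2.40e-05) at 24 h. A difference between lines at the longer time was not called (adjusted p = 0.284).

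SCN4B and SCN2B, beta subunits of sodium channels, were low and moved in different directions. SCN4B, which has been linked to resurgent sodium current, was read in SH-SY5Y at 7.81, 8.89, 6.99, 5.01 and 4.33 CPM in controls, 7.95, 8.44, 7.18, 4.60 and 4.97 CPM at 24 h and 3.69, 3.01, 2.27, 3.41 and 1.45 CPM at 5 d. Each 5 d library lay below all controls, and the log2 fold change was -1.32 ± 0.25 (adjusted p = 1.32e-04) at 5 d and -0.01 ± 0.23 (adjusted p = 0.966) at 24 h. Its neighbour on chromosome 11, SCN2B, moved the other way in SH-SY5Y, from 0.549, 0.789, 0.782, 0.525 and 0.211 CPM in controls to 1.62, 1.12, 1.21, 1.68 and 1.33 CPM at 5 d (1.20 ± 0.33, adjusted p = 0.00374, no overlap). SCN2B of SK-N-BE(2)C went from 0.375, 0.263, 0.299, 0.297 and 0.108 CPM in controls to 0.316, 1.73, 2.77, 1.36 and 1.21 CPM at 7 d (2.41 ± 0.44, adjusted p = 1.33e-04), where 7 d replicate 1 lay within the control range. There it passed the count filter through its treated libraries alone. The 24 h calls of SCN2B were lost without control 5 in SK-N-BE(2)C (its adjusted p then being 0.052) and without control 5 or 24 h replicate 1 in SH-SY5Y (adjusted p from 0.061 to 0.11).

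Summed over each subunit class per kb, the median level of the pores was above that of controls at the longer time in each line, with no test made. The alpha1 sum in SK-N-BE(2)C had a median of 4.28 CPM per kb in controls (range 3.17 to 5.56), 11.97 at 24 h (10.4 to 12.1) and 20.2 at 7 d (16.9 to 23.8). In SH-SY5Y it went from 4.45 (3.96 to 4.60) to 6.29 (6.10 to 7.04) and 9.87 (6.91 to 10.9), and in IMR-32 from 63.7 (32.0 to 69.3) to 78.4 (54.6 to 89.8) and 80.7 (69.8 to 84.5). Groups overlapped at 24 h in IMR-32 and were apart from controls at both times in the other lines. Sodium channel alpha sums at the longer time were 2.02, 1.70 and 1.64 times the control median. For auxiliary classes the same ratios were 1.78, 1.35 and 1.77 for alpha2delta, 2.54, 1.59 and 1.46 for calcium channel beta, 3.82, 1.22 and 1.54 for gamma, and 1.72, 1.33 and 1.68 for sodium channel beta. The gamma sums of SK-N-BE(2)C controls were 25.3, 26.4, 8.25, 8.45 and 9.99 CPM per kb, and without control 3, 4 or 5 the ratio of 3.82 was 2.16 to 2.26. Leaving out 1 library, a setting chosen after seeing the data, moved no other of these ratios by more than 1.5 times.

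The responses of members were compared between lines in the fit of 45 libraries. At 24 h 2 of 32 differed, CACNA1B and CACNA1H, a share below the 9.43% of all genes. With the replicate block 7 did, where 19.2% of all genes did, among them CACNB1 (adjusted p = 0.033), CACNG4 (0.018), SCN3B (0.018) and SCN9A (0.018). The count was 1 without number 4 of SK-N-BE(2)C or number 2 of IMR-32 and 4 without number 5 of IMR-32, with no share of all genes computed. At the longer time 17 of 32 differed, close to the 52.4% of all genes. The lowest adjusted p-values were those of CACNG7 (adjusted p = 4e-14), CACNA1B (1.2e-08) and CACNA1H (7.7e-08), each with the highest fold change in SK-N-BE(2)C, the line with 7 d of PB. SCN2A (0.0023), SCN3A (0.00014), SCN9A (0.0031), CACNA1G (0.0037) and CACNB1 (0.0001) also differed, with the smallest of the 3 fold changes in SH-SY5Y. With the block CACNG4 (6.8e-05) was among those added at this time.

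Genes whose products work with these channels were counted in 5 lists, beside 24.5%, 16.6% and 18.6% of all genes called higher and 22.3%, 15.5% and 17.3% lower. Of the anchors and modulators of sodium channels, 9 of 10 were higher and 1 lower at 7 d in SK-N-BE(2)C, 6 of 11 higher and none lower in IMR-32, and 5 of 9 higher and 1 lower in SH-SY5Y. SPTBN4 and NFASC, which hold channels at the axon initial segment, rose by 2.22, 0.63 and 1.59 and by 1.04, 1.02 and 1.12 on the log2 scale, and FGF14, an intracellular modulator, rose by 1.86, 1.09 and 1.89. ANK3, the ankyrin that binds sodium channels there, rose in IMR-32 (1.06) and fell in SK-N-BE(2)C (-0.75) and SH-SY5Y (-0.92). Calcium channel partners gave 4 higher and 1 lower of 8, 2 and 2 of 10, and 4 and 1 of 11. In that list STX1A, the release-site syntaxin, rose in each line (1.26, 0.61 and 0.68), and GEM, an inhibitor of the channels, rose in SK-N-BE(2)C (1.11) and fell in IMR-32 (-2.33) and SH-SY5Y (-0.72). The sodium leak channel and its partners had 3 of 3, 1 of 4 and 2 of 3 higher and 0, 1 and 0 lower. Genes of calcium stores were higher in 5, 1 and 5 and lower in 3, 2 and 3 of 13 tested in each line. RYR2, the ryanodine receptor, rose by 2.12, 1.16 and 1.67, while the inositol trisphosphate receptor ITPR3 had log2 fold changes of -4.05, -2.37 and -1.04. Calcium extrusion genes were higher in 4 of 7 in each line and lower in 1, 2 and 1. There the neuronal pump ATP2B2 rose by 2.74, 1.34 and 1.81, and of the sodium-calcium exchangers SLC8A2 rose by 1.91, 0.72 and 1.44 while SLC8A1 had -3.38, -0.77 and -2.66. Over all 5 lists 25 of 41, 14 of 45 and 20 of 43 were higher and 6, 7 and 6 lower. Each of the genes named here passed both limits in the line given, by edgeR over all genes.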

How the data were processed

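Polyadenylated RNA of 45 libraries was sequenced as read pairs from a directional kit. Per the labels, whose processing notes give the versions, the authors trimmed reads with Trim Galore 0.6.4, aligned them with STAR 2.6.1d (the paper's methods name another release) to hg19 and deposited raw counts per gene, CPM and DESeq2 1.32.0 output. Which strand was counted is not stated in the labels or methods, so reads of genes that overlap on opposite strands may not be separated. The deposited CPM equalled each count over the library total and were used as levels. The DESeq2 tables hold the authors' own fold changes and p-values and were not used.

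Counts were tested per line (15 libraries, no block) with edgeR 4.0.16 in R 4.3.3: TMM factors, filterByExpr (minimum count 10, minimum total 15), a robust quasi-likelihood F test and Benjamini-Hochberg adjustment over all genes tested. An adjusted p is from these fits unless the text names the fit of 45 libraries, the block, a comparison between lines or a left-out library, and values after ± are standard errors for log2 fold changes and SD for levels. A call required both limits: adjusted p under 0.05, and log2 fold change above 0.5 in size. One fit of 45 libraries tested controls between lines (both limits) and the difference of responses (adjusted p under 0.05, no fold limit). The procedure was tried on simulated independent counts without pairing, close replicates or a library set apart, so the trial does not cover these features of the data. Levels per kb use the merged exon length of GENCODE models on GRCh37. Alternatives were DESeq2 1.42.0, its size factors, no filter on low counts, no fold limit, a replicate block and leaving libraries out.

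Members were found by symbol, and members and lists were chosen with earlier results of these data known. Values are given for members called in 1 direction in all 3 lines in a comparison against control, members called in opposite directions in 2 lines, members called at the longer time in 1 or 2 lines with a mean of at least 1 CPM, and the 3 highest per kb in each class. SCN8A was added after its values were seen. Of the members, 2 enter the counts and class sums but are not reported here by name, nor are all mutations of the lines. Replicate numbers paired the samples in IMR-32 and SH-SY5Y and, at 24 h, in SK-N-BE(2)C, where every pair's deviations from the group means correlated above 0.1. At 7 d the lowest correlation in SK-N-BE(2)C was 0.0966 with controls and 0.0482 with 24 h. The main fits leave this pairing unused, as the paper's methods state no block. More members of IMR-32 were called at 24 h with the block than without it.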

Additional observations from a re-analysis of the deposited data

Results flagged for a closer look

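Of 189 groups of 5 libraries of named channel genes, 12 had a library set apart from the other 4 by Dixon's test, which chance does in about 1 in 20 groups, and 7 of the 12 were replicate 5. In IMR-32 controls replicate 5 was low for CACNA2D1 (43.9 CPM, others 67.5 to 76.97), CACNB3 (57.12, others 101.8 to 114.3), CACNG4 (140.7, others 197.5 to 216.4) and SCN1A (0.5746 CPM, others 2.504 to 3.006). It was also low for CACNG4 at 24 h (106.2 CPM, others 184.4 to 196.3) and high for SCN3B at 5 d (103.2 CPM, others 70.69 to 78.53). The same number stood apart in the mesenchymal marker sums of IMR-32, and its part in these values was not tested. In SK-N-BE(2)C, 24 h replicate 2 was high for CACNA1G (0.6289 CPM, others 0.1673 to 0.2497) and low for CACNB3 (16.23 CPM, others 19.18 to 20.35), 7 d replicate 5 was high for CACNA2D1 (284.5 CPM, others 247.3 to 257.3) and 7 d replicate 4 for CACNG5 (0.5105 CPM, others 0.05507 to 0.162). In SH-SY5Y, 24 h replicate 1 was high for SCN2B (2.195 CPM, others 0.6987 to 1.047) and control replicate 1 for SCN7A (0.6331 CPM, others 0.3128 to 0.3816).

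Responses that differed between lines in edgeR's test of the difference itself were those of CACNA1B (adjusted p = 0.00067) and CACNA1H (0.016) at 24 h. At the longer time they were, among the named genes, those of the pores CACNA1B (1.2e-08), CACNA1C (4e-06), CACNA1D (0.00036), CACNA1G (0.0037), CACNA1H (7.7e-08), SCN1A (0.00017), SCN2A (0.0023), SCN3A (0.00014), SCN7A (0.00091) and SCN9A (0.0031), and of the auxiliary CACNB1 (0.0001), CACNB3 (0.0024), CACNB4 (0.0093), CACNG7 (4e-14) and CACNG8 (0.0071), and also that of CACNG1 (0.023), which was under 1 CPM on average in every group. SCN1A had 113 counts in 15 libraries of SK-N-BE(2)C and 50 in those of SH-SY5Y, and CACNG1 had 6 in SK-N-BE(2)C. CACNA1C, CACNA1D, CACNB4 and CACNG8 were hardly read in SK-N-BE(2)C, and CACNG8, SCN7A and CACNA1H were each at or near 0 in a line, so part of these tests rests on few reads.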

How the results depend on the processing

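Of 1567 values of the 100 results for named genes under another setting, 1463 kept direction and call, 104 kept direction and lost the call and 0 changed direction, and 81 of the 100 results never lost it. In IMR-32 at 24 h, where 2 members were called, 7 were called with the replicate block, 6 without number 5 in all groups, and 2 to 6 with 1 library left out. In SH-SY5Y 12 were called with no fold limit both at 24 h (7 with it) and between 24 h and 5 d (6 with it). Apart from the main fits, the share of all genes was computed only for the block fits at 24 h. Counts under the other settings describe the members alone. Responses at 24 h that differed between lines numbered 2, 7 with the replicate block, and 1 to 4 with 1 replicate number of a line left out. Beside the calls named in the report, the block ended that of SCN2B between 24 h and 7 d in SK-N-BE(2)C (log2 fold change 0.88, adjusted p = 0.057). It changed no other call of a member named here. Leaving out 1 library gave 18 to 20 calls at 7 d in SK-N-BE(2)C, 13 to 16 at 5 d in IMR-32 and 15 to 21 at 5 d in SH-SY5Y. DESeq2, run on all counts without the count filter, called 23, 17 and 22 at these times. Its tested members need not be the 22, 25 and 26 that edgeR tested, so these counts cannot be set beside those of edgeR. Without numbers 4 and 5 SK-N-BE(2)C had 19 calls at 7 d and 7 at 24 h, and those lost at 24 h included CACNG5 (-0.89, adjusted p = 0.25) and SCN2B (1.02, adjusted p = 0.32). At the median depth 1 CPM is 18.5 reads, so changes of members under 1 CPM were not detectable unless large.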
